A study of Macaca mulatta with 13 samples.

Results

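The genes described are 9 costimulatory receptors, ligands and associated surface proteins of T cells: CD28, ICOS, CTLA4, CD27, CD40LG, TNFRSF4, TNFRSF9, TRAT1 and CD69. They were followed on arrays of blood mononuclear cells from infant rhesus macaques. A probe set, the group of short probes that the array uses to report a transcript, was taken as a member when the platform annotation paired it with exactly 1 of these symbols. That gave 16 of the 52865 probe sets on the array, for 7 of the 9 genes. CD28, CTLA4, CD40LG and CD69 had 3 probe sets each, TRAT1 had 2, and ICOS and TNFRSF4 had 1. CD27 was paired only on a probe set that also carries the symbol TAPBPL, and TNFRSF9 was paired with no probe set in this annotation, so neither gene has a value here. In the RefSeq annotation of assembly T2T-MMU8v2.0, used only for gene order, CD28, CTLA4 and ICOS are direct neighbours in that order on chromosome 12, TNFRSF4 lies beside TNFRSF18 on chromosome 1, and CD40LG is on chromosome X.

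The study asked whether the conditions of early rearing go with differences in gene expression. Each of the 13 animals, all 4 months old, gave 1 array: per the labels, rearing was maternal for 5 animals, by peers for 4 and surrogate-peer for 4. In peer rearing infants usually grow up without their mothers in the company of animals of their own age, and in surrogate-peer rearing usually with an inanimate surrogate and some contact with peers; the labels give no details of either. The maternal animals served as the reference for both other conditions, and replicate numbers only name animals within a group.

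A T cell needs a signal through its antigen receptor and a second, costimulatory signal to become fully active. CD28 delivers that second signal when it binds CD80 or CD86 on an antigen-presenting cell, ICOS acts later and supports help to B cells, and CTLA4 competes for the ligands of CD28 and restrains the response. CD40LG on helper T cells engages CD40 on B cells, monocytes and dendritic cells, while TNFRSF4 (OX40) sustains activated T cells, TRAT1 is an adaptor that stabilises the antigen receptor complex, and CD69 is an early activation marker that also retains lymphocytes in tissue.

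In mixed blood cells, fewer T cells and less RNA per T cell cannot be told apart. The mean log2 value over the 11 of 18 listed T cell markers that had a probe set lay between 9.01 and 9.64 on the maternal arrays, between 9.58 and 9.88 on the peer arrays and between 9.50 and 9.91 on the surrogate-peer arrays. Maternal arrays 2 (9.04) and 5 (9.01) had the least, and the monocyte marker mean was highest on the same arrays, at 11.41 and 11.33 against 10.05 to 10.94 on the 11 others. Differences are also given below without these arrays. Those that follow the T cell or monocyte markers shrink without them by construction. All 11 measured T cell markers, among them CD4, CD8A, CD8B, CD5 and ZAP70, were above the filter on low values; the markers not used here, for want of a probe set paired with 1 symbol in the annotation given, included the CD3 chains, CD247, CD2 and LCK. The 3' to 5' signal ratio of control transcripts, a sign of RNA integrity given as a log2 difference, ranged from 1.55 to 2.23 on maternal, 1.40 to 1.74 on peer and 1.33 to 1.46 on surrogate-peer arrays. The part of these features in the differences below was not tested unless a value is given.

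Against the maternal animals, the 8 animals reared without their mothers had higher signal on 1 probe set each of CD40LG and TRAT1. ICOS, CD69 and 1 probe set of CD28 showed differences of similar size that did not pass the test. Of the 16 member probe sets, 14 had a mean above the filter and were tested, and 2 CTLA4 probe sets were below it. Of the 14, 2 passed an adjusted p of 0.05, by limma with Benjamini-Hochberg adjustment over 26352 probe sets, and both were higher in the non-maternal animals. Neither was its gene's probe set with the highest mean. The member count was 0 when each gene was taken by that probe set, and 0 after quantile normalization. Over all tested probe sets 8% passed, 6.64% as higher (1751) and 1.35% as lower (356); when each array was centred on its median the split was 1094 higher and 834 lower, and after quantile normalization 876 and 455. At an unadjusted p under 0.05, 9 of the 14 were higher and 0 lower, where 19% of all tested probe sets were higher and 10% lower. The log2 fold change was above 0 for 12 of the 14, against 51% of all tested probe sets, and its median over all 16 members was 0.51 against 0.01 over all tested. No tested member separated the groups completely, as 2.87% of all tested probe sets did. The count of 2 rose to 6 without maternal array 1. It fell to 0 when maternal array 2, 4 or 5, peer array 1, 2 or 4, or surrogate-peer array 3 or 4 was left out. It was 1 without any of the 4 remaining arrays. The count over all tested probe sets also rose without maternal array 1, to 3671 higher and 1152 lower. It fell when any other single array was left out, for example to 251 higher and 58 lower without peer array 1. The fall was largest without maternal array 4 (24 higher, 6 lower) and maternal array 5 (43 higher, 17 lower).

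**Figure D1:**
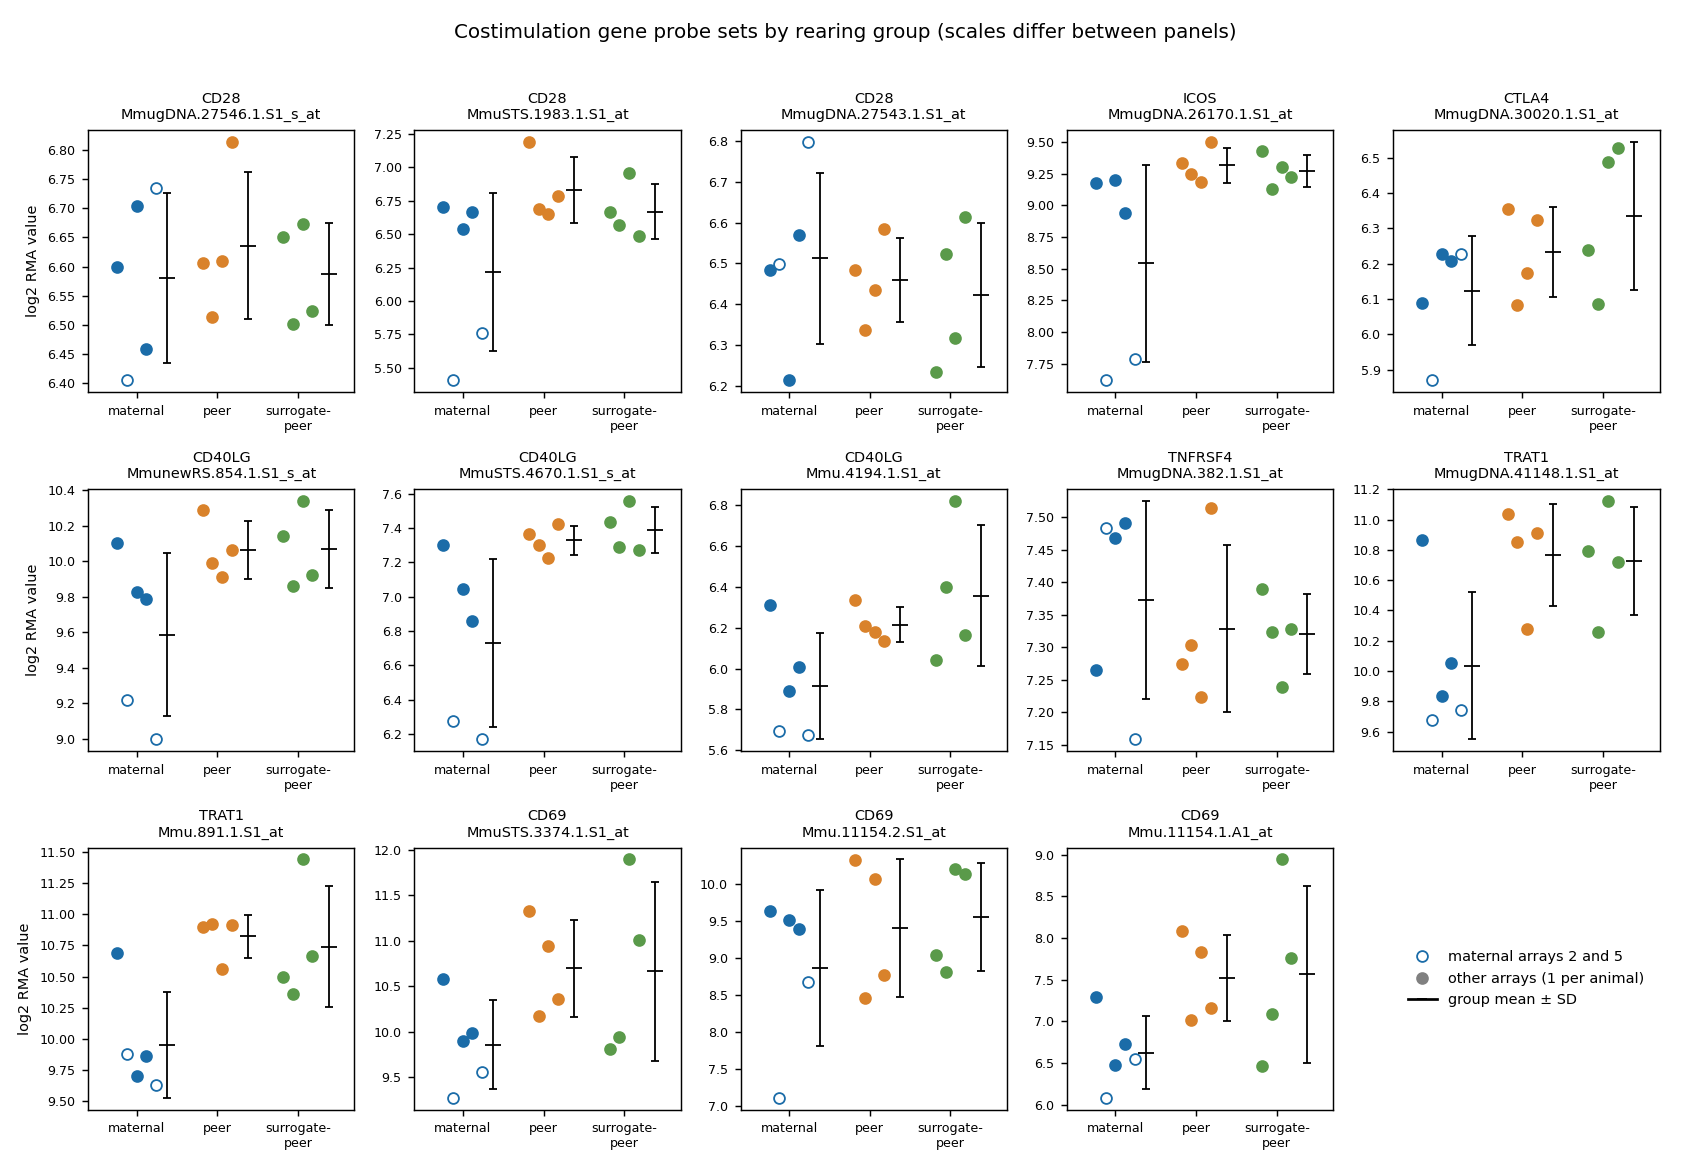
Log2 value of each of the 14 tested member probe sets on each of the 13 arrays, 1 point per animal, with the mean and SD of each rearing group beside its points and maternal arrays 2 and 5 as open circles. For ICOS the maternal points span 7.62 to 9.20 while the 8 others lie between 9.13 and 9.50.

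Among the receptors of the CD28 family, ICOS varied most between maternal animals. Its log2 value was 9.17, 7.62, 9.20, 8.94 and 7.79 on maternal arrays 1 to 5. It was 9.33, 9.25, 9.18 and 9.50 on the peer arrays and 9.43, 9.13, 9.31 and 9.22 on the surrogate-peer arrays. Maternal animals 2 and 5 were far below all others, and the other 3 maternal animals reached into or close to the range of the non-maternal animals. The non-maternal mean was higher by 0.75 ± 0.26 on the log2 scale (SE of the fit, 8 against 5 animals), with an adjusted p by limma of 0.0854. The SD was 0.78 among the maternal and 0.13 among the non-maternal animals, so this SE, from a shared spread, understates the error. Without maternal arrays 2 and 5 the difference was 0.19 ± 0.10 (limma adjusted p = 0.263), and without maternal array 1 it was 0.91 (limma adjusted p = 0.0328). With the 3' to 5' ratio as a covariate it was 1.56 ± 0.25 and passed (limma adjusted p = 0.0187).

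The 3 probe sets of CD28, the receptor for CD80 and CD86, did not give the same picture. All had low signal, with means over the 13 arrays of 6.6, 6.545 and 6.469 against the filter of 6.04. MmugDNA.27546.1.S1_s_at, the one with the highest mean, read 6.60, 6.41, 6.70, 6.46 and 6.74 on the maternal arrays. It read 6.61, 6.51, 6.61 and 6.81 on the peer arrays and 6.65, 6.50, 6.67 and 6.52 on the surrogate-peer arrays. The groups overlapped throughout, and the non-maternal difference of 0.03 ± 0.08 (limma adjusted p = 0.809) changed sign to -0.03 when arrays were centred on their median. MmuSTS.1983.1.S1_at read 6.71, 5.41, 6.54, 6.67 and 5.76 on the maternal arrays, against 6.65 to 7.19 on the peer and 6.49 to 6.96 on the surrogate-peer arrays. As for ICOS, maternal animals 2 and 5 were the low ones, here at values below the filter. The difference of 0.53 ± 0.22 (limma adjusted p = 0.128) was 0.11 ± 0.13 without them. MmugDNA.27543.1.S1_at ranged from 6.21 to 6.80 on the maternal and from 6.23 to 6.61 on the other arrays, with a difference of -0.07 ± 0.10.

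CTLA4, the inhibitory counterpart of CD28, had low signal on all its probe sets. MmugDNA.30020.1.S1_at, the only one above the filter, read 6.09, 5.87, 6.23, 6.21 and 6.23 on the maternal arrays. It read 6.36, 6.08, 6.17 and 6.32 on the peer arrays and 6.24, 6.09, 6.49 and 6.53 on the surrogate-peer arrays. The maternal values lay inside or just below the range of the others, and the difference of 0.16 ± 0.10 did not pass (limma adjusted p = 0.278). MmugDNA.5921.1.S1_s_at, below the filter, ranged from 4.78 to 5.29 over all arrays. MmugDNA.25217.1.S1_at, also below it, ranged from 4.05 to 4.30 on the maternal, 4.40 to 4.88 on the peer and 4.23 to 4.38 on 3 surrogate-peer arrays, with 5.52 on surrogate-peer array 3. This was the 1 member probe set on which the peer and maternal animals did not overlap; it was not tested, and 9.48% of the tested probe sets separated these groups in either direction.

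The ligand CD40LG was higher in the non-maternal animals on each of its 3 probe sets, and 1 passed the test. MmuSTS.4670.1.S1_s_at read 7.30, 6.28, 7.05, 6.86 and 6.17 on the maternal arrays. It read 7.36, 7.30, 7.23 and 7.42 on the peer arrays and 7.44, 7.29, 7.56 and 7.27 on the surrogate-peer arrays. Maternal animal 1 lay within the range of the 8 non-maternal animals and the other 4 maternal animals lay below it, with animals 2 and 5 lowest. The non-maternal mean was higher by 0.63 ± 0.17, or 1.55-fold (limma adjusted p = 0.0433). The SD was 0.49 among the maternal and 0.11 among the non-maternal animals. The fit takes 1 spread for all groups, so its SE understates the error here. Leaving out any 1 array kept the difference between 0.49 and 0.77, and the call held only without maternal array 1 or 3; the highest adjusted p, 0.0975, came without maternal array 5. Without maternal arrays 2 and 5 the difference was 0.29 ± 0.10 (limma adjusted p = 0.138).

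MmunewRS.854.1.S1_s_at, the CD40LG probe set with the highest mean, read 10.10, 9.22, 9.83, 9.79 and 8.999 on the maternal arrays. It read 10.29, 9.99, 9.91 and 10.07 on the peer arrays and 10.14, 9.86, 10.34 and 9.92 on the surrogate-peer arrays. Maternal animals 2 and 5 were again lowest, and the groups overlapped through maternal animal 1. The difference was 0.48 ± 0.17 (limma adjusted p = 0.0951) with all arrays and 0.16 ± 0.12 without maternal arrays 2 and 5. It passed at 0.99 ± 0.18 with the 3' to 5' ratio as a covariate (limma adjusted p = 0.0211) and at 0.73 ± 0.205 with the number in the sample titles, whose meaning is not stated, as a covariate (limma adjusted p = 0.0417). The CD40LG probe set with the lowest mean ranged from 5.68 to 6.31 on the maternal, 6.14 to 6.34 on the peer and 6.04 to 6.82 on the surrogate-peer arrays, a difference of 0.37 ± 0.14 (limma adjusted p = 0.102). Without maternal array 1, both these probe sets passed, with adjusted p by limma of 0.0253 and 0.0299 respectively.

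TNFRSF4, a receptor of the tumour necrosis factor family on activated T cells, showed no difference past its error. It read 7.27, 7.48, 7.47, 7.49 and 7.16 on the maternal arrays. It read 7.27, 7.30, 7.22 and 7.52 on the peer arrays and 7.39, 7.32, 7.24 and 7.33 on the surrogate-peer arrays. The groups overlapped, and maternal animals 2 and 5 held the second highest and the lowest of the maternal values. The difference was -0.05 ± 0.08 (limma adjusted p = 0.694), with a 95% interval from -0.22 to 0.12.

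TRAT1, the adaptor of the antigen receptor complex, was higher in the non-maternal animals on both its probe sets. The called TRAT1 probe set read 10.69, 9.88, 9.70, 9.86 and 9.63 on the maternal arrays. It read 10.90, 10.92, 10.56 and 10.91 on the peer arrays and 10.50, 10.36, 11.44 and 10.66 on the surrogate-peer arrays. Maternal animal 1 stood within the range of the non-maternal animals, and the other 4 maternal animals were below all 8 of them. The difference was 0.83 ± 0.20, or 1.78-fold (limma adjusted p = 0.0336). It stayed between 0.71 and 1.01 when any 1 array was left out, and the call held without maternal array 1, peer array 3 or surrogate-peer array 1 or 2 and was lost without any other, with the highest adjusted p, 0.0894, without maternal array 4. Without maternal arrays 2 and 5 it was 0.70 ± 0.25 (limma adjusted p = 0.138).

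The second TRAT1 probe set, MmugDNA.41148.1.S1_at, read 10.87, 9.68, 9.84, 10.05 and 9.75 on the maternal arrays. It read 11.03, 10.85, 10.28 and 10.91 on the peer arrays and 10.80, 10.26, 11.13 and 10.72 on the surrogate-peer arrays. The same maternal animal stood among the non-maternal animals and the same 4 lay below all of them. The difference was 0.71 ± 0.21 (limma adjusted p = 0.0572); without maternal array 1 it was 0.92 (limma adjusted p = 0.00499), and without maternal arrays 2 and 5 it was 0.49 ± 0.24.

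CD69, the early activation marker, had high mean differences and the widest spread within groups. MmuSTS.3374.1.S1_at read 10.58, 9.27, 9.90, 9.99 and 9.56 on the maternal arrays. It read 11.33, 10.17, 10.95 and 10.36 on the peer arrays and 9.81, 9.94, 11.90 and 11.01 on the surrogate-peer arrays. Surrogate-peer animals 1 and 2 lay among the maternal values while surrogate-peer animal 3 was the highest of all. The difference of 0.82 ± 0.35 did not pass (limma adjusted p = 0.144). The CD69 probe set with the lowest mean gave 0.92 ± 0.36 (limma adjusted p = 0.118), with maternal values from 6.08 to 7.29 and non-maternal values from 6.47 to 8.94. The remaining CD69 probe set gave 0.61 ± 0.47 (limma adjusted p = 0.398); its lowest maternal value, 7.12, was that of animal 2, and without animals 2 and 5 the difference was -0.04 ± 0.42.

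**Figure D2:**
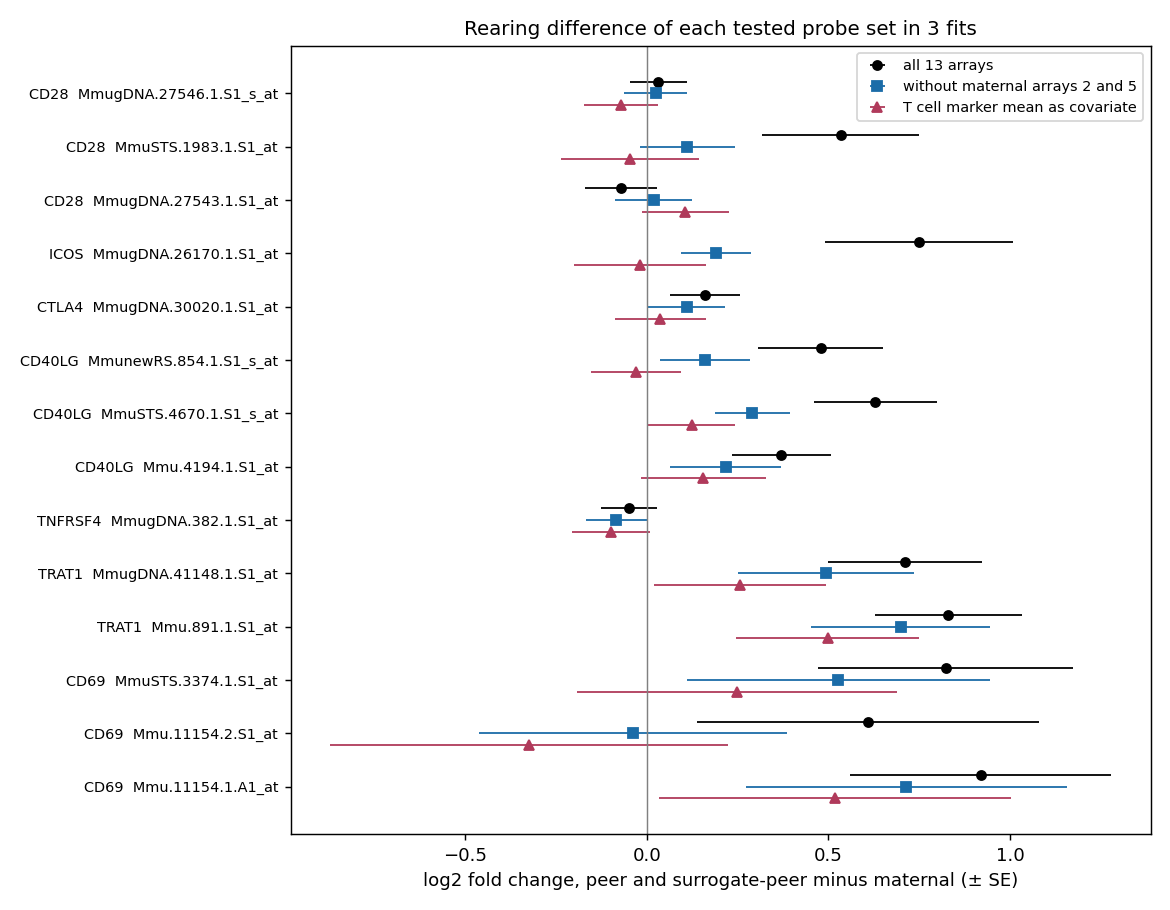
Log2 fold change, peer and surrogate-peer minus maternal, of the 14 tested member probe sets with the SE of the limma fit, for all 13 arrays, without maternal arrays 2 and 5, and with the T cell marker mean as covariate. ICOS goes from 0.75 to 0.19 and -0.02 over these fits, while TRAT1 on its called probe set goes from 0.83 to 0.70 and 0.50.

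Taken singly, neither the peer nor the surrogate-peer group passed the test against the maternal animals on any member probe set. Both contrasts use the same 5 maternal arrays, so their values are not independent. For peer against maternal, 0 of the 14 tested members passed by limma, where 0.353% of all tested probe sets did; 6 of the 14 were higher at an unadjusted p under 0.05, against 16.7% of all. For surrogate-peer against maternal, 0 of the 14 passed and 0% of all; 7 of the 14 were higher at an unadjusted p under 0.05, against 14% of all. The median over the 16 members was 0.51 for peer and 0.47 for surrogate-peer against maternal. ICOS gave 0.77 ± 0.30 for peer and 0.73 ± 0.30 for surrogate-peer. TRAT1 on its called probe set gave 0.87 ± 0.24 (limma adjusted p = 0.0698) for peer and 0.79 ± 0.24 (limma adjusted p = 0.119) for surrogate-peer. CD40LG on MmuSTS.4670.1.S1_s_at gave 0.60 ± 0.20 and 0.66 ± 0.20. Without maternal array 1, 3 member probe sets passed in each of these contrasts. Of all tested probe sets, 2794 then passed as higher and 690 as lower for peer, and 1752 and 343 for surrogate-peer.

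The surrogate-peer and peer animals did not differ detectably on any member. By limma 0 of the 14 tested members passed, as did 0% of all tested probe sets, and 0 of the 14 reached an unadjusted p under 0.05, which 1.83% of all did. The median difference over the 16 members was -0.00225. The 95% interval of the surrogate-peer minus peer difference ran from -0.74 to 0.65 for ICOS, from -0.40 to 0.52 for CD40LG on MmuSTS.4670.1.S1_s_at and from -0.63 to 0.46 for TRAT1 on its called probe set. It was widest for CD69, from -1.12 to 1.41 on the CD69 probe set of intermediate mean, and among the narrowest for TNFRSF4, from -0.22 to 0.20. The F test for any difference among the 3 groups passed for 0 of the 14 members and for 0.0873% of all tested probe sets.

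The members followed the T cell marker level of the arrays to different degrees. The permutations shuffled all 13 arrays without regard to rearing, so their p-values also take in differences shared between the groups. Over the 13 arrays, ICOS correlated with the mean of the 11 T cell markers at a Pearson r of 0.932 (permutation p = 2e-05, the smallest that 100000 resamples can give; adjusted over 14 relations, 0.00028) and a Spearman rho of 0.879 (permutation p = 0.0002). Without maternal arrays 2 and 5, the farthest from the median, r was 0.905, and over the 8 non-maternal arrays alone it was 0.825. CD40LG on MmuSTS.4670.1.S1_s_at gave an r of 0.948 (permutation p = 4e-05, adjusted 0.00028) and a rho of 0.83 (permutation p = 0.00088), with 0.815 without those arrays and 0.794 within the non-maternal animals. TRAT1 on its called probe set followed less closely, with an r of 0.758 (permutation p = 0.00306, adjusted 0.00714), a rho of 0.615 (permutation p = 0.0287, adjusted 0.0575), 0.629 without those arrays and 0.521 within the non-maternal animals.

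CD69 on MmuSTS.3374.1.S1_at gave an r of 0.673 (permutation p = 0.00518, adjusted 0.0104) and a rho of 0.582 (permutation p = 0.0407, adjusted 0.0633). Its r was 0.456 without those arrays and 0.347 within the non-maternal animals. CD28 on MmuSTS.1983.1.S1_at gave 0.866 (permutation p = 0.0019, adjusted 0.00532) and a rho of 0.626 (permutation p = 0.0257, adjusted 0.0575), and r was 0.49 without maternal arrays 2 and 5. The other 2 CD28 probe sets went otherwise. MmugDNA.27546.1.S1_s_at, with the highest mean, gave an r of 0.426 (permutation p = 0.143, adjusted 0.154) and a rho of 0.533 (permutation p = 0.0648, adjusted 0.0824), and r was 0.788 without those arrays and 0.848 within the non-maternal animals. MmugDNA.27543.1.S1_at gave an r of -0.565 (permutation p = 0.0466, adjusted 0.0544) and a rho of -0.544 (permutation p = 0.0581, adjusted 0.0814), and r was -0.344 without those arrays. TNFRSF4 gave an r of 0.02 and a rho of -0.01 (permutation p = 0.958 and 0.98). With the T cell marker mean as a covariate in the fit, the non-maternal difference was -0.02 for ICOS, 0.12 for CD40LG on MmuSTS.4670.1.S1_s_at, 0.50 for TRAT1 on its called probe set and 0.25 for CD69 on MmuSTS.3374.1.S1_at, and 0 member probe sets and 15 of all tested passed by limma. The marker mean itself differed between the groups, so rearing and the covariate cannot be fully told apart in that fit.

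The 3' to 5' ratio of the arrays moved the differences the other way. With it as a covariate, 5 member probe sets passed by limma against 2 without it: ICOS, CD40LG on MmunewRS.854.1.S1_s_at and MmuSTS.4670.1.S1_s_at, CD28 on MmuSTS.1983.1.S1_at and TRAT1 on MmugDNA.41148.1.S1_at. Of all tested probe sets, 1311 passed as higher and 321 as lower with the ratio, against 1751 and 356 without it. CD40LG on MmuSTS.4670.1.S1_s_at gave 1.09 ± 0.19 (limma adjusted p = 0.0206), CD28 on MmuSTS.1983.1.S1_at gave 1.28 ± 0.17 (limma adjusted p = 0.0187), and TRAT1 on MmugDNA.41148.1.S1_at gave 1.09 ± 0.29 (limma adjusted p = 0.0499). The TRAT1 probe set called without the covariate gave 0.98 ± 0.31 and lost its call (limma adjusted p = 0.0776), as it did at 0.92 ± 0.27 with the title number (limma adjusted p = 0.0507). CD69 on MmuSTS.3374.1.S1_at gave 1.25 ± 0.52 with the ratio and did not pass (limma adjusted p = 0.156). For peer against maternal ICOS was 1.41 ± 0.24 with the ratio and passed (limma adjusted p = 0.0238). The ratio had its highest values on maternal arrays, as given above, so rearing and this covariate cannot be fully told apart. Within the maternal group it was lowest on arrays 2 (1.55) and 5 (1.61), the arrays with low ICOS. No surrogate-peer array, at up to 1.46, reached the maternal range, so the fit compares these groups at ratios they do not share.

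**Figure D3:**
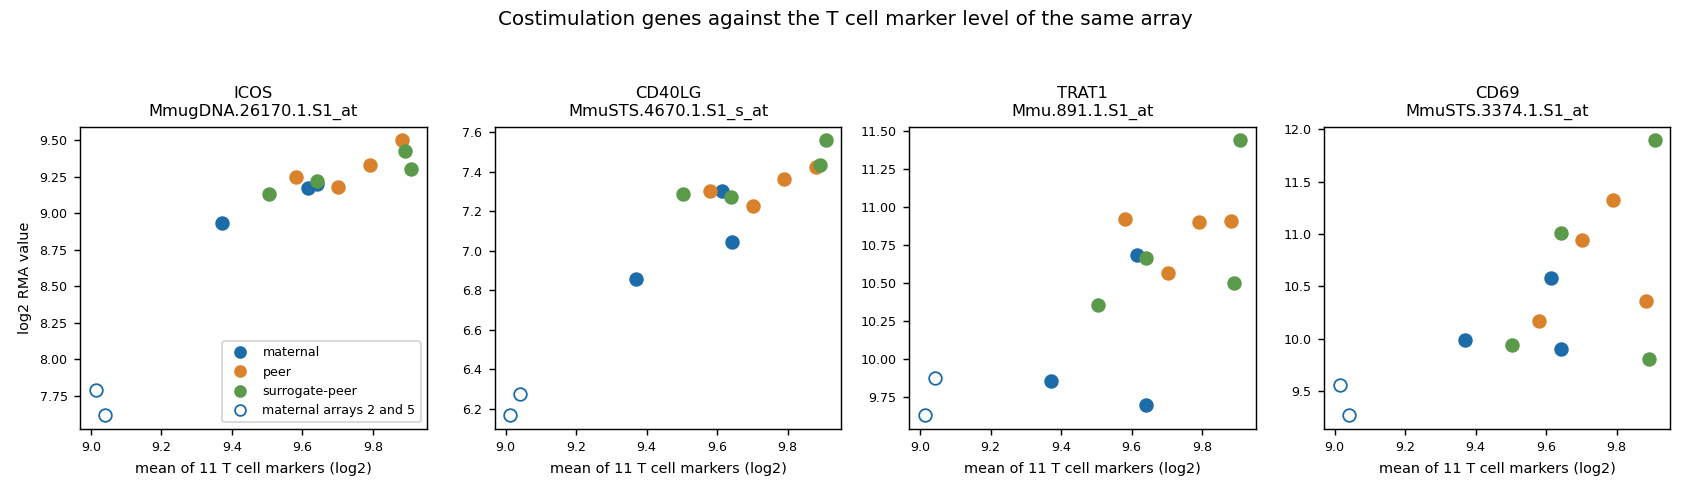
Log2 value of ICOS, CD40LG, TRAT1 and CD69, each on 1 probe set, against the mean log2 value of 11 T cell markers on the same array, 1 point per animal, with maternal arrays 2 and 5 open. Those 2 arrays lie at the left, at 9.04 and 9.01, and the points scatter more for TRAT1 and CD69 than for ICOS.

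Some members moved with each other across arrays. As descriptions over the same 13 arrays, which share the group shift and the normalization, ICOS correlated at 0.925, 0.959 and 0.67 with the 3 CD40LG probe sets in order of falling mean. With the 3 CD28 probe sets, also in order of falling mean, it correlated at 0.288, 0.924 and -0.498. The TRAT1 probe sets correlated with each other at 0.937, and the 3 pairs of CD69 probe sets at 0.98, 0.823 and 0.761. The 3 CD28 probe sets, all of low signal, correlated with one another at only -0.39 to 0.275. TNFRSF4 had an r between -0.511 and 0.056 with every other member probe set.

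Genes outside the set with the most similar pattern were sought by Pearson r over the 13 arrays among 14380 tested probe sets. For ICOS they were PHAF1 (0.987), the lymph node homing receptor CCR7 (0.986) and RFX7 (0.984). For CD40LG on MmunewRS.854.1.S1_s_at they were the T helper transcription factor GATA3 (0.98), HIVEP2 (0.973) and MTMR9 (0.971). For TRAT1 on MmugDNA.41148.1.S1_at they were MGARP (0.95), PRKCH (0.943) and TXNDC15 (0.941), and for CD69 on MmuSTS.3374.1.S1_at the regulator of G protein signalling RGS1 (0.924), TENT4B (0.89) and ICMT (0.875). The nearest for TNFRSF4 were TMEM208 (0.904), STUB1 (0.892) and TMEM9 (0.878). CTLA4 and CD28 on their probe sets with the highest mean had no gene above 0.844 and 0.823, reached by PIP4K2B and PDCD11; the next were C8H8orf76 and ZNF346 for CTLA4 and ACTR8 and PARP15 for CD28.

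The partners of these receptors did not move as a block. The counts of calls below stand against 6.64% of all tested probe sets called as higher and 1.35% as lower, and groups that do not overlap against 2.87% of all. In the non-maternal minus maternal comparison, 1 of the 11 tested ligands of costimulation passed, as higher, and the median over the 14 measured was -0.14. It was TNFSF8, the ligand of CD30, with 0.38 ± 0.09 (limma adjusted p = 0.0353); it read 6.59 to 7.23 on the maternal and 7.12 to 7.35 on the other arrays, and was 0.52 without maternal arrays 2 and 5 (limma adjusted p = 0.04). Of 9 tested coinhibitory receptors and ligands, 1 rose and 1 fell, with a median of -0.13 over 12 measured. CD96, an immunoglobulin family receptor of T and NK cells, was higher by 0.90 ± 0.19 (limma adjusted p = 0.0252) on MmugDNA.7831.1.S1_at, where all 8 non-maternal animals, at 6.79 to 8.23, exceeded the maternal 5.95 to 6.56. Its other tested probe set gave -0.14. CD274, the PD-1 ligand, fell by 1.18 ± 0.25 (limma adjusted p = 0.0239), from 6.65 to 8.50 on maternal arrays to 6.11 to 6.64 on the others. The highest values were those of maternal animals 5 and 2, and without them the difference was -0.76 (limma adjusted p = 0.0726).

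None of 9 tested further costimulatory receptors passed by limma, with a median of 0.11 over 11 measured; the smallest p-values were those of CRTAM (0.85, adjusted p = 0.0715), CD244 (-0.48, adjusted p = 0.0753) and TNFRSF18 (-0.32, adjusted p = 0.0791), the neighbour of TNFRSF4. Of 17 tested signalling genes downstream of costimulation, 1 rose and 1 fell, with a median of -0.02 over 18 measured. PTPN11, the phosphatase SHP-2, was higher by 0.53 ± 0.11 (limma adjusted p = 0.0252), with 0.25 and 0.09 on its other probe sets. MAP3K14, the NF-kB inducing kinase that acts below receptors such as CD40 and TNFRSF4, fell by 0.36 ± 0.07 (limma adjusted p = 0.0232), and all 8 non-maternal animals, at 7.35 to 7.72, were below the maternal 7.88 to 8.10. Of 9 tested genes of early activation 2 rose and 0 fell, with a median of 0.12 over 12 measured. The transcription factor EGR2 was higher by 2.59 ± 0.53 (limma adjusted p = 0.0238): the maternal arrays read 5.27 to 5.98, surrogate-peer array 1 read 5.85, and the 7 other non-maternal arrays read 7.29 to 9.38. Its second probe set, below the filter, gave -0.01. MYC was higher by 0.83 ± 0.21 (limma adjusted p = 0.0355), with its lowest values, 9.47 and 9.84, on maternal arrays 5 and 2, and 0.44 without them.

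Each of these 7 list calls was lost when maternal array 4 was left out, with adjusted p by limma of up to 0.0956 over the single omissions. Except for TNFSF8 each was lost without maternal array 5. Over the 13 single omissions, the call held in only 4 for TNFSF8 and 3 for MYC. It held in 9 each for CD274 and PTPN11, 10 for EGR2 and 11 each for CD96 and MAP3K14. Of all tested probe sets, 24 passed as higher and 6 as lower without maternal array 4, and 43 and 17 without maternal array 5. In the comparisons of peer or surrogate-peer with maternal animals, and of surrogate-peer with peer animals, 0 of the 55 tested genes of these 5 lists passed by limma, where 0.353%, 0% and 0% of all tested probe sets did. At an unadjusted p under 0.05 there were 21, 17 and 5 of the 55 in those comparisons, against 24.9%, 20.3% and 1.83% of all tested probe sets.

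**Figure D4:**
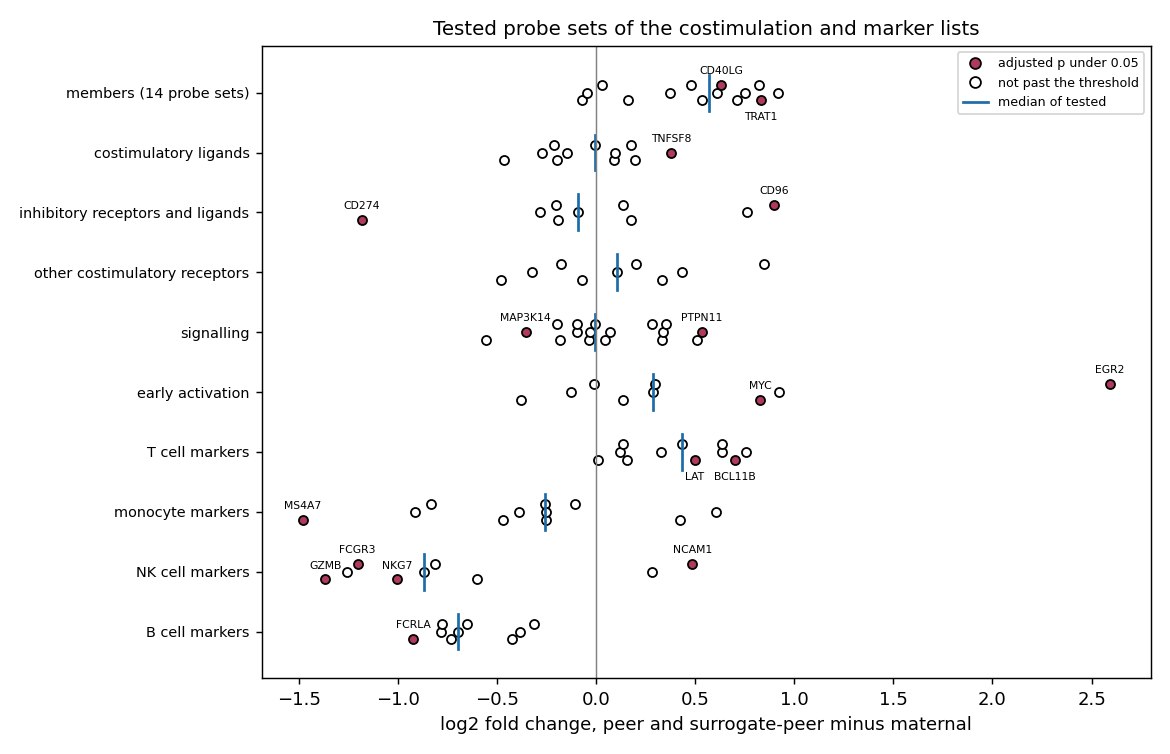
Non-maternal minus maternal log2 fold change of the 14 tested member probe sets and of the tested genes of 9 lists, 1 circle each, with the median of those tested as a bar. Filled, named circles passed the test; ligands, inhibitory receptors and signalling genes lie on both sides of 0.

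Cell type markers moved in the same comparison as well, where 6.64% of all tested probe sets were called as higher, 1.35% as lower and 51% were above 0. All 11 tested T cell markers were above 0, with a median of 0.44, and 2 rose: LAT by 0.50 on its probe set with the highest mean (limma adjusted p = 0.0442) and BCL11B by 0.70 (limma adjusted p = 0.0313). The other tested LAT probe sets gave 0.28 and 0.25 (limma adjusted p = 0.335 and 0.293). BCL11B had signal close to the filter of 6.04, at 5.64 to 6.23 on the maternal arrays and 6.21 to 7.255 on the others. The difference of the T cell marker mean went from 0.40 to 0.19 without maternal arrays 2 and 5. Of 11 monocyte markers 2 were above 0 and 1, MS4A7, fell. The difference of the monocyte marker mean went from -0.36 to 0.04 without maternal arrays 2 and 5. Those arrays were the lowest on the T cell and the highest on the monocyte markers, so both changes follow from which arrays were left out. Of 9 NK markers 2 were above 0, with a median of -0.87. NKG7, GZMB and FCGR3 fell, and NCAM1 rose on its probe set with the highest mean. The other tested NCAM1 probe sets gave 0.29, 0.41, 0.20 and 0.02, and none passed. The difference of the NK marker mean went from -0.71 to -0.935 without maternal arrays 2 and 5. Of 9 B cell markers 0 were above 0, with a median of -0.70, and 1, FCRLA, fell on its probe set with the highest mean. Its other probe set gave -0.15 (limma adjusted p = 0.533). The B cell marker median was -0.21 for peer and -1.19 for surrogate-peer against maternal and -0.90 for surrogate-peer against peer. In that last comparison 0 of the 9 passed by limma and all 9 were lower at an unadjusted p under 0.05. Of 3 tested basophil markers FCER1A and CPA3 rose. All 10 of these marker calls were lost without maternal array 4 and, but for GZMB, without maternal array 5. Over the 13 single omissions, the call held in only 1 for NCAM1, 2 for LAT and 3 each for NKG7 and CPA3. It held in 6 each for FCGR3 and FCER1A, 7 each for BCL11B and MS4A7, 11 for FCRLA and 12 for GZMB. No platelet (7 tested), neutrophil (4), dendritic (3) or erythroid (2) marker passed. Medians over the 7, 5, 4 and 3 measured, with those below the filter included, were -0.24, -0.28, 0.11 and 0.18. The tested dendritic markers FLT3, CD1C and CLEC10A gave 0.40, -0.53 and -0.07. The tested erythroid markers ALAS2 and HBB gave -0.64 and 0.20. No listed marker was at 0; ELANE, MS4A2, HDC, CLEC9A and AHSP were below the filter. The part of these markers in the members' differences was not tested beyond the values given for the T cell markers and for maternal arrays 2 and 5.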

How the data were processed

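Total RNA of blood mononuclear cells was hybridised to Affymetrix rhesus genome arrays, 1 per animal, per the labels. The authors deposited log2 values per probe set; the submitters' processing notes name RMA (robust multi-array average), without its version or settings or whether all arrays were normalized together, and the log2 scale was read from the values. Array medians were 6.00 to 6.06. Depth does not apply to arrays; the number of animals limits the precision, and where the labels do not say how animals were sampled, p-values measure the spread between these samples.

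Of 52865 probe sets, 158 controls were left out; of the 52707 others, 24956 carried 1 gene symbol in the platform annotation, 361 several and 27390 none. Probe sets with a mean over the 13 arrays above the median of means, 6.04, were tested, 26352 in all, with limma 3.58.1 (R 4.3.3; lmFit, eBayes) in 1 fit of 3 group means over all arrays. The main contrast set the average of both non-maternal group means against the maternal mean. P-values are two-sided with Benjamini-Hochberg adjustment at 0.05, errors are standard errors of the fit, and the shared spread understates the error where maternal animals vary more. The tests were checked on simulated data with independent noise and the same spread in all groups. That check does not cover a larger spread among the maternal animals or shifts shared by the probe sets of an array. Correlations used 100000 permutations (scipy 1.17.1).

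The members, the 14 gene lists (169 entries) and the tests were chosen with earlier results of these data known. A gene of a list is represented by its probe set with the highest mean. Member probe sets were described in full when they had their gene's highest mean or passed; from each list up to 8 genes past the threshold were named, or the 3 with the smallest p where none passed, and for each member the 3 genes with the most similar pattern. Further single members were given values beside them. No sequence is shown, since probe sequences were not used here. Alternatives varied the filter, normalization, weights, covariates and arrays.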

Additional observations from a re-analysis of the deposited data

Results flagged for a closer look

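In 3 of the 48 combinations of member probe set and group, 1 animal stood apart from its group by Dixon's criterion at the 95% level, which chance meets in about 1 in 20 groups. The lowest CTLA4 probe set, MmugDNA.25217.1.S1_at, read 5.524 on surrogate-peer array 3, where the other 3 surrogate-peer arrays read 4.234 to 4.382. TRAT1 on its called probe set read 10.687 on maternal array 1, above the next maternal value of 9.877 and the lowest of 9.633. The same TRAT1 probe set read 10.563 on peer array 3, below the 3 other peer values, which lay between 10.899 and 10.919.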

How the results depend on the processing

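For non-maternal against maternal animals, the count of member probe sets past the threshold was 2 with all arrays. It was 1 with no filter on low values, 1 with arrays centred on their median and 0 after quantile normalization. It was 0 with the T cell marker mean as a covariate, 5 with the 3' to 5' ratio as a covariate and 0 without maternal arrays 2 and 5. It was 0 when each gene was taken by its probe set with the highest mean. Leaving out 1 array at a time gave 0 to 6. Of all tested probe sets, 1751 passed as higher and 356 as lower with all arrays. These counts became 876 and 455 after quantile normalization, and 8 and 7 with the T cell marker mean. They were 28 and 9 without maternal arrays 2 and 5. With the ratio they fell to 1311 and 321, while the member count rose. For peer against maternal the member count of 0 became 1 with array weights and 4 with the 3' to 5' ratio as a covariate. The count over all tested probe sets rose too, from 93 in either direction. It became 1344 higher and 199 lower with array weights, and 1220 and 258 with the ratio. The member count ranged from 0 to 3 over the single omissions. It also ranged from 0 to 3 for surrogate-peer against maternal and for the F test, the 3 coming in each case without maternal array 1. For surrogate-peer against peer it was 0 in every alternative run, and with all arrays 0 of the 14 reached an unadjusted p under 0.05. Why these counts moved was not tested; leaving out arrays also leaves fewer animals.

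Changes of sign fell on differences near 0 or came from a covariate. CD28 on MmugDNA.27546.1.S1_s_at, for both groups, peer and surrogate-peer against maternal in turn, gave -0.031, -0.00665 and -0.055 with centred arrays and -0.071, -0.048 and -0.095 with the T cell marker mean. With the title number it gave -0.00776 for both groups and -0.0618 for surrogate-peer, and for surrogate-peer also -0.00516 with the 3' to 5' ratio and -0.00017 without maternal arrays 2 and 5. With the T cell marker mean, ICOS gave -0.020 for both groups and -0.039 for surrogate-peer, CTLA4 gave -0.013 for peer, and CD40LG on MmunewRS.854.1.S1_s_at gave -0.029, -0.033 and -0.025 for the same 3 comparisons. With the title number CTLA4 gave -0.019 for surrogate-peer against maternal. With the 3' to 5' ratio TNFRSF4 gave 0.023, 0.012 and 0.035. For surrogate-peer against peer the title number gave 0.40 for ICOS, -0.098 for CTLA4, 0.033 for TNFRSF4, 0.28 for TRAT1 on MmugDNA.41148.1.S1_at and 0.050 on the called TRAT1 probe set. The 3' to 5' ratio gave 0.31 for ICOS, 0.023 for TNFRSF4, 0.12 for TRAT1 on MmugDNA.41148.1.S1_at and 0.15 for CD69. Array weights gave -0.00736 for CD40LG on MmunewRS.854.1.S1_s_at, 0.0072 for TNFRSF4 and 0.19 for CD69.

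With 1 array left out, CD28 on MmugDNA.27546.1.S1_s_at ranged from -0.013 to 0.070 for both groups, -0.00393 to 0.096 for peer, -0.037 to 0.046 for surrogate-peer and -0.089 to 0.011 for surrogate-peer against peer. In that last comparison the ranges were -0.098 to 0.016 for ICOS, -0.087 to 0.079 for CD40LG on MmunewRS.854.1.S1_s_at, -0.044 to 0.054 for TNFRSF4, -0.21 to 0.11 and -0.32 to 0.043 for TRAT1 on MmugDNA.41148.1.S1_at and on its called probe set, and -0.45 to 0.25 for CD69 on MmuSTS.3374.1.S1_at. Of the other alternatives to single probe set differences, 736 kept direction and side of the threshold, 30 lost the call and 18 gained it. Only 2 of the 36 differences followed passed with all arrays, so the others had no call to lose. The 736 are therefore no measure of how well the 2 calls held. No paired analysis was possible because the replicate numbers only name animals in order of deposit and the labels tie no animals of different groups together.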
